A study of Rattus norvegicus with 12 samples.

Results

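The 9 genes described here act in blood clotting and clot removal, and they were taken from the deposited count table by symbol (Plat, Plau, Plaur, F3, F13a1, Thbd, Tfpi, Procr and Vwf), 9 of its 34599 genes. Each had 1 row, and all 9 had enough counts to be tested. RNA was sequenced from the left ventricle (LV) of 12 male Sprague Dawley rats, 4 per group, taken 1 day after surgery. It came from the infarct region in the rats with an infarct, and the Sham rats had none. Sham rats had the chest opened without ligation. MI (myocardial infarction) rats had the left anterior descending coronary artery tied and were left untreated. The iCarP+/Light+ rats had the same ligation, an injection of Chlorella (a green alga that gives off oxygen in light) into the heart muscle with swab pressing to stop bleeding, a light-guiding polyester patch glued to the heart surface, and illumination. They are also called the treated rats. All 12 rats had an opened chest. Alga, needle puncture, patch, adhesive and light came together in the treated rats and cannot be told apart, and treated rats without light were not analysed here.

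Clotting starts when tissue factor (F3) meets blood, and thrombin then turns fibrinogen into fibrin that factor XIII crosslinks. Healthy endothelium holds the process in check through tissue factor pathway inhibitor (Tfpi) and through thrombomodulin (Thbd) and the endothelial protein C receptor (Procr), which together activate protein C. Fibrin is cleared by plasmin, made from plasminogen by the tissue and urokinase activators (Plat and Plau), the second of which works on cells that carry its receptor (Plaur).

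Against Sham, the infarct held 16.9-fold more Plau and 13.2-fold more Plaur RNA, with smaller rises of Procr and F13a1, while Thbd, Tfpi and Vwf fell (Tfpi and Vwf changed sign with total counts alone as the scale). Against MI, the iCarP+/Light+ tissue held 3.71-fold more Plaur, 2.81-fold more F3 and 1.70-fold more Thbd. Plat did not pass the test in any of the 3 comparisons, though it did in both against Sham with total counts alone. Levels are given as TMM CPM (read counts brought to one library size by edgeR's TMM method, which allows for library composition), and the fold changes and tests come from edgeR's quasi-likelihood model over 15101 genes, with a Benjamini-Hochberg adjustment across all these genes and a threshold of 0.05.

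Libraries held 14064414 to 17136958 counts, and 3 counts, the least taken as a detected level, came to 0.144 to 0.228 TMM CPM. Mitochondrial genes took 22.8% to 28.9% of the counts in Sham rats, 8.52% to 11.5% in MI rats and 7.14% to 14.2% in treated rats. With total counts alone as the scale, the median of all genes moved to 0.52 (log2) in MI against Sham, −0.25 in iCarP+/Light+ against MI and 0.33 in iCarP+/Light+ against Sham. The calls over all genes then went from 4553 higher of 9633 to 7707 higher of 10483 in MI against Sham, and from 1747 higher of 2051 to 1204 higher of 3926 in iCarP+/Light+ against MI. Cardiomyocyte markers summed to 43097 to 47943 CPM in Sham rats, 3039 to 6272 in MI rats and 3024 to 7466 in treated rats, so the heart muscle label fits the Sham tissue by its markers, and the muscle signal was far lower in both ligated groups.

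Promoter sequence was at hand in RefSeq (build GRCr8) for 5 members, among them all 4 that rose in MI, and those 4 are shown because these genes rose together. The fifth is Tfpi, which fell in MI and has 2 entries, described with the motifs but not printed. None is shown for Plat, F3, Thbd and Vwf. Each line gives the 250 bases before the annotated start, 5′ to 3′ on the gene's strand, and capitals mark the AP-1 heptamer (TGACTCA or TGAGTCA, searched on both strands).
Plaur (chr1:89181113-89181362, plus strand): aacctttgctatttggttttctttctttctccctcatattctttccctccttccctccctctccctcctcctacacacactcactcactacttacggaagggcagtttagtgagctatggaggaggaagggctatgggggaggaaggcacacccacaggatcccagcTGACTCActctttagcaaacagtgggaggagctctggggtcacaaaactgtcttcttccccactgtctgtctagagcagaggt
Procr (chr3:164714477-164714726, plus strand): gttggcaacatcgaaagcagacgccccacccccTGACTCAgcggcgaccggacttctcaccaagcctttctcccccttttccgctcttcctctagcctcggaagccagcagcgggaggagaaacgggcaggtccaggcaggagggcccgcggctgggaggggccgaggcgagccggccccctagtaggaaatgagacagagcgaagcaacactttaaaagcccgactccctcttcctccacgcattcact
Plau (chr15:3511988-3512237, minus strand): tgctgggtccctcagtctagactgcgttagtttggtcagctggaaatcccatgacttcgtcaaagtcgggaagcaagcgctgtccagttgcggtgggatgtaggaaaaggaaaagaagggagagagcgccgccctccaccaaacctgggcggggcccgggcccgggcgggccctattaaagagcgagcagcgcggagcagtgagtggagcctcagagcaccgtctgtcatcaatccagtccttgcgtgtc
F13a1 (chr17:28020947-28021196, plus strand): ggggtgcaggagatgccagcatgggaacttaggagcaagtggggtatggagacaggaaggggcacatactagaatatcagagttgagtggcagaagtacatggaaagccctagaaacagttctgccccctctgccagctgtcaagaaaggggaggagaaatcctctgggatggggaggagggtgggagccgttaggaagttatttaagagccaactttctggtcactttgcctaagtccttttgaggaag
The heptamer began 83 bases before the start of Plaur and 217 bases before that of Procr, and it was in 4.05% of 33469 rat promoter windows of this length. The GC box GGGCGG was found 3 times in the Plau window and in none of the other 3, and 30.5% of all windows held it. The HIF core ACGTG or GCGTG was found once in the Plau window and once in the Procr window, as in 36.7% of all windows. The CRE TGACGTCA and the letters TATAAA, also searched on both strands, were in none of the 4 windows and in 1.59% and 12.9% of all. Of the 2 Tfpi windows, 1 held a HIF core and the other a GC box, and neither held the AP-1 heptamer, the CRE or TATAAA. Such a match describes the letters of the window and is not a binding site.

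**Figure D1:**
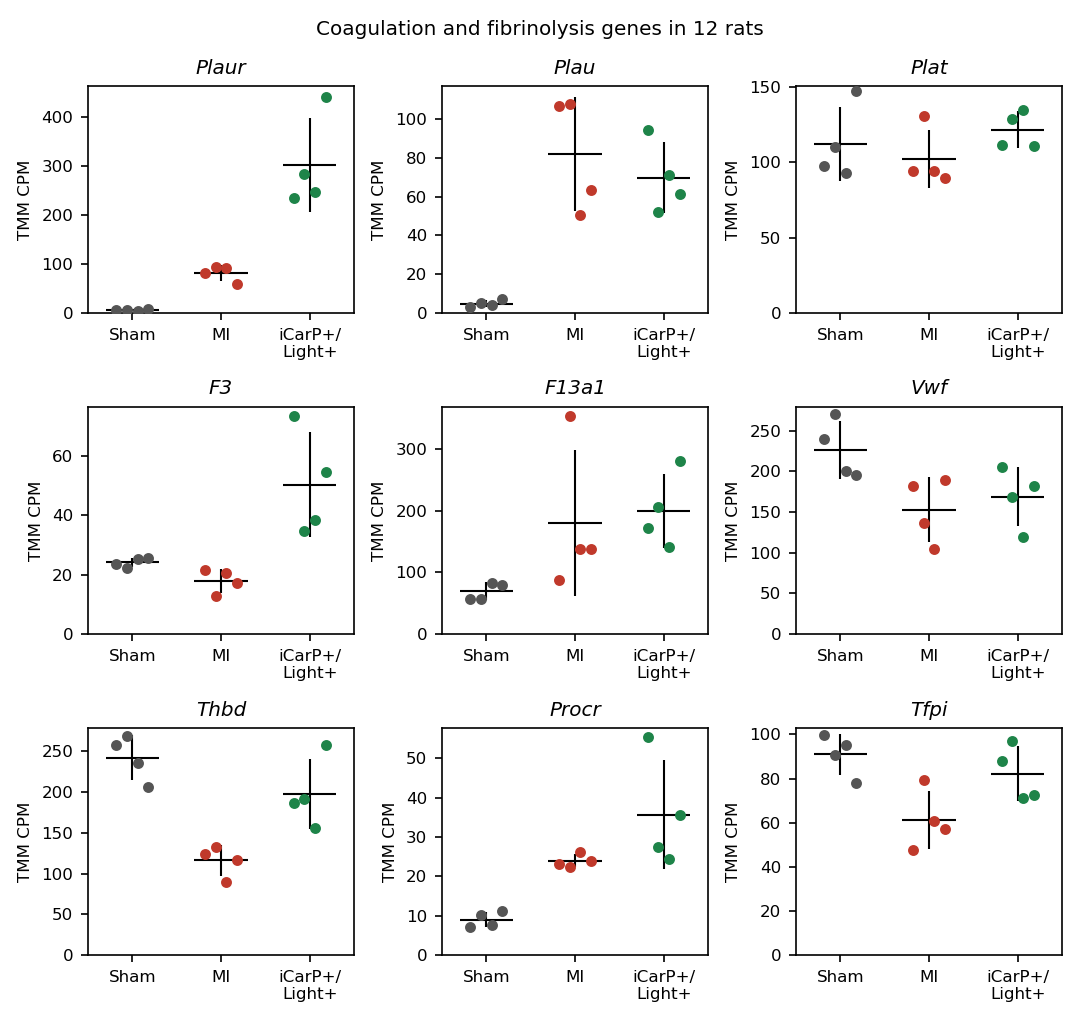
TMM CPM (y axis, from 0) of the 9 genes in every rat, by group (x axis), with the mean as a horizontal line and the SD as a vertical line (n = 4). Plaur rose at both steps, Plau rose from Sham to MI, and F3 and Thbd were higher in treated rats than with MI alone.

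The urokinase receptor Plaur (chromosome 1, 81328183 to 81344708, plus strand, as listed in the count table) binds urokinase on the surface of leukocytes and other cells. It stood at 5.999, 6.62, 4.71 and 7.37 CPM in Sham rats 1, 2, 3 and 5. In MI rats 1, 3, 4 and 5 it stood at 81.1, 94.4, 91.3 and 58.6 CPM. In iCarP+/Light+ rats 1, 2, 4 and 5 it stood at 235, 283, 247 and 441 CPM. The 3 groups did not overlap, and every treated rat was at least at 235 CPM, where the highest MI rat was at 94.4. The log2 fold change was 3.72 (SE 0.243, adjusted p = 1.06e-07) in MI against Sham and 1.89 (SE 0.218, adjusted p = 7.85e-05) in iCarP+/Light+ against MI. Bulk tissue mixes cell types, so more cells of a type and more RNA per cell cannot be told apart here, and likewise for fewer and less.

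Neutrophil and monocyte markers moved with Plaur. All 9 tested of 12 were higher in MI than in Sham, and 5 were higher and 1 lower in iCarP+/Light+ than in MI. Their summed level was 222 to 389 CPM in Sham rats, 3872 to 6940 in MI rats and 5977 to 10982 in treated rats, none of the 10 markers in the table was at 0 in a whole group, and Itgam and Ccr2 were not analysed here. Plaur minus the mean log2 CPM of these markers was −0.29 in Sham, −0.90 in MI and −0.42 in treated rats, and the groups overlapped in each comparison. Differences were −0.60 (exact permutation p = 0.0857) in MI against Sham and 0.47 (exact permutation p = 0.114) in iCarP+/Light+ against MI.

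Urokinase itself (Plau, chromosome 15, 3644769 to 3650819, minus strand) rose with the infarct, and in treated rats it stayed within the MI range. Sham rats held 2.96, 5.19, 4.25 and 7.002 CPM of it and MI rats 106.5, 108, 50.5 and 63.4 CPM. In iCarP+/Light+ rats 1, 2, 4 and 5 the values were 94.6, 51.9, 71.4 and 61.2 CPM, so the ligated groups overlapped. Plau was 4.08 higher (log2, SE 0.327, adjusted p = 4.07e-07) in MI than in Sham. Between iCarP+/Light+ and MI the difference was −0.23 (95% interval −0.84 to 0.37, adjusted p = 0.66), and each rat left out in turn moved it to between −0.42 and −0.08. Plau minus the neutrophil and monocyte markers was −0.68 in Sham, −0.94 in MI and −2.52 in treated rats, and treated rats lay below all Sham rats (exact permutation p = 0.0286, the smallest that 4 against 4 allows). The other comparisons of this measure overlapped, with −0.26 in MI against Sham (exact permutation p = 0.629) and −1.59 in iCarP+/Light+ against MI (exact permutation p = 0.0571).

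Tissue plasminogen activator (Plat, chromosome 16, 74098260 to 74122889, minus strand), made largely by endothelium, passed the edgeR test in no comparison. Its mean was 112 ± 24.7 CPM in Sham, 102 ± 19.1 in MI and 122 ± 12.3 in treated rats (SD, n = 4), with the ranges overlapping. The log2 difference between MI and Sham was −0.13 (95% interval −0.49 to 0.22), and it was 0.45 (adjusted p = 0.032) with total counts alone as the scale, under the 0.52 by which the median of all genes moved there. Between treated and Sham rats it was 0.12 (95% interval −0.24 to 0.47), and 0.43 (adjusted p = 0.0375) with total counts alone, where that median moved by 0.33. The difference between iCarP+/Light+ and MI was 0.25 (95% interval −0.10 to 0.60). Plat minus the mean log2 CPM of endothelial markers, 7 of 8 of which were lower in both ligated groups than in Sham, differed by 0.66 in MI against Sham (exact permutation p = 0.0571) and 0.22 in iCarP+/Light+ against MI (exact permutation p = 0.229), with overlap in both. It was 0.88 higher in treated than in Sham rats, with no overlap (exact permutation p = 0.0286). MI rat 3, at 131 CPM, lay above the other 3 MI rats, which spanned 89.4 to 94.6 CPM. As a ratio per kilobase within a rat, Plau to Plat was 0.041 to 0.064 in Sham rats, 0.73 to 1.53 in MI rats and 0.55 to 1.15 in treated rats, a pair of genes compared after their values had been seen.

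Tissue factor (F3, chromosome 2, 225310624 to 225322272, plus strand), the cell surface starter of clotting, was higher in treated rats than in either other group. Sham rats held 23.6, 22.0, 25.4 and 25.4 CPM and MI rats 21.4, 12.7, 20.4 and 17.02 CPM. The iCarP+/Light+ rats held 73.3, 34.5, 38.4 and 54.4 CPM. All 4 treated rats lay above all 8 others, and all 4 MI rats lay below all 4 Sham rats, though that difference did not pass the test. F3 was 1.49 higher (log2, SE 0.226, adjusted p = 6.33e-04) in iCarP+/Light+ than in MI, and 1.06 higher (SE 0.224, adjusted p = 9.97e-04) than in Sham. The difference between MI and Sham was −0.43 (95% interval −0.92 to 0.06, adjusted p = 0.111), and it was 0.15 with total counts alone as the scale, against the median shift of 0.52. F3 minus the endothelial markers was 1.40 higher in treated rats than in MI rats, and the 2 groups did not overlap (exact permutation p = 0.0286). Relative to cardiomyocyte markers the difference was 1.37, with overlapping groups (exact permutation p = 0.0571). Red blood cell markers were also higher in treated than in MI rats in 4 of 7 tested, with sums of 2536 to 7013 CPM in MI and 6257 to 17563 CPM in treated rats. At an unadjusted edgeR p under 0.05 all 7 were higher, and after adjustment 5 by DESeq2 and 4 by limma-voom. Of the neutrophil and monocyte markers 5 of 9 were higher and 1 lower. Against Sham, where the red blood cell markers summed to 7957 to 10708 CPM, 5 of 7 of them were lower in MI. In treated rats 0 of 7 passed the edgeR test against Sham in either direction (also 0 at an unadjusted p under 0.05 and by DESeq2 or limma-voom). The part of these cells in the F3 result was not tested.

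Factor XIII subunit A (F13a1, chromosome 17, 28504623 to 28680362, plus strand) carries the active site of the enzyme that crosslinks fibrin and is made by macrophages and platelets. It rose from 69.2 ± 14.5 CPM in Sham to 180 ± 119 in MI and stood at 200 ± 59.9 in treated rats (SD, n = 4). MI rats spread widely, with 88.0 CPM in rat 1, 354 in rat 3, 139 in rat 4 and 138 in rat 5, and none reached down to the highest Sham rat at 83.1. The log2 fold change was 1.38 (SE 0.365, adjusted p = 0.00503) in MI against Sham, and without MI rat 3 it was 0.82 (adjusted p = 0.0122). Between treated and MI rats it was 0.16 (95% interval −0.62 to 0.93, adjusted p = 0.83), and its sign turned with total counts alone (−0.12) and without MI rat 1 (−0.07) or iCarP+/Light+ rat 5 (−0.13), while it was 0.72 (adjusted p = 0.0894) without MI rat 3. Resident-type macrophage markers, 7 tested of 9, were higher in 5 in MI against Sham and lower in 3 in iCarP+/Light+ against MI, and summed to 335 to 441, 744 to 1542 and 543 to 797 CPM in the 3 groups. F13a1 minus these markers spanned −0.99 in MI rat 1 to 2.27 in MI rat 3. It differed by −0.12 in MI against Sham (exact permutation p = 0.743) and by 0.92 in iCarP+/Light+ against MI (exact permutation p = 0.257), with overlap in both. Treated rats lay above all Sham rats on this measure, by 0.79 (exact permutation p = 0.0286).

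Thrombomodulin (Thbd, chromosome 3, 142748674 to 142752325, minus strand) binds thrombin on endothelium and turns it toward protein C. Sham rats held 257, 269, 236 and 206 CPM and MI rats 125, 133, 89.9 and 117 CPM. The iCarP+/Light+ rats held 187, 192, 156 and 258 CPM, between the other groups and overlapping Sham. The MI rats lay below all others, with a log2 fold change of −1.06 (SE 0.166, adjusted p = 9.96e-05) against Sham. Treated rats were 0.77 higher than MI (SE 0.165, adjusted p = 0.00694). Against Sham they differed by −0.29 (95% interval −0.65 to 0.07, adjusted p = 0.136), which was −0.42 (adjusted p = 0.0273) without iCarP+/Light+ rat 5 and 0.01 with total counts alone, where the median of all genes moved by 0.33.

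Most endothelial markers fell together with Thbd from Sham to MI. Of 10 listed, 8 were tested, Cldn5 was at 0 in every rat and Pecam1 was not analysed here. In MI against Sham 7 were lower, and between treated and MI rats 0 passed the edgeR test in either direction (1 higher at an unadjusted p under 0.05, and 0 by DESeq2 or limma-voom). Their summed level was 1863 to 2075 CPM in Sham rats, 887 to 1330 in MI rats and 1122 to 1283 in treated rats. Thbd minus these markers was 0.16 in Sham, −0.12 in MI and 0.60 in treated rats, and the treated rats lay above both other groups (exact permutation p = 0.0286 for each).

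The endothelial protein C receptor (Procr, chromosome 3, 151285249 to 151289595, plus strand) presents protein C to thrombomodulin, and it moved the other way from Thbd with the infarct. Sham rats held 7.16, 10.2, 7.51 and 11.1 CPM, MI rats 23.2, 22.4, 26.3 and 24.0 CPM, and iCarP+/Light+ rats 55.3, 27.4, 24.5 and 35.7 CPM. Sham lay below both ligated groups, which overlapped each other. It was 1.41 higher (log2, SE 0.237, adjusted p = 1.76e-04) in MI than in Sham, and 0.58 higher in iCarP+/Light+ than in MI without passing the test (95% interval 0.08 to 1.07, adjusted p = 0.125). Relative to the endothelial markers Procr was 2.21 higher in MI than in Sham, with no overlap (exact permutation p = 0.0286). The ratio of Procr to Thbd per kilobase, chosen after the values were seen, was 0.069 to 0.134 in Sham rats, 0.418 to 0.726 in MI rats and 0.343 to 0.736 in treated rats.

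Tissue factor pathway inhibitor (Tfpi, chromosome 3, 71852744 to 71893618, minus strand) blocks tissue factor with factor VIIa. Sham rats held 99.96, 90.6, 95.04 and 78.1 CPM, MI rats 47.5, 79.3, 60.7 and 57.2 CPM, and iCarP+/Light+ rats 87.8, 96.9, 71.0 and 72.7 CPM. MI rat 3 lay within the Sham range and the other 3 MI rats below it. Tfpi was lower in MI than in Sham (log2 −0.57, SE 0.157, adjusted p = 0.00625), but with total counts alone the value was 0.01, under the median shift of 0.52. Treated and MI rats differed by 0.42 (95% interval 0.09 to 0.76, adjusted p = 0.1), and without MI rat 3 it was 0.57 (adjusted p = 0.0236). Relative to the endothelial markers, which were also lower in both ligated groups, Tfpi differed by 0.20 between MI and Sham, with overlapping groups (exact permutation p = 0.343), and by 0.39 between treated and MI rats, also overlapping (exact permutation p = 0.143). Treated rats lay above all Sham rats on this measure, by 0.59 (exact permutation p = 0.0286).

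Von Willebrand factor (Vwf, chromosome 4, 158088505 to 158219523, plus strand), which tethers platelets and carries factor VIII, stood at 226 ± 35.7 CPM in Sham, 153 ± 40.3 in MI and 169 ± 36.7 in treated rats (SD, n = 4). All 4 MI rats, at 104 to 190 CPM, lay below all 4 Sham rats, at 195 to 271. The log2 fold change in MI against Sham was −0.56 (SE 0.208, adjusted p = 0.0299). It lost its call without MI rat 3 (−0.51), MI rat 4 (−0.41), iCarP+/Light+ rat 5 (−0.46), Sham rat 1 (−0.53) or Sham rat 2 (−0.47), and it was 0.02 with total counts alone, under the median shift of 0.52. Vwf minus the endothelial markers differed by 0.19 between MI and Sham, with overlapping groups (exact permutation p = 0.286).

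**Figure D2:**
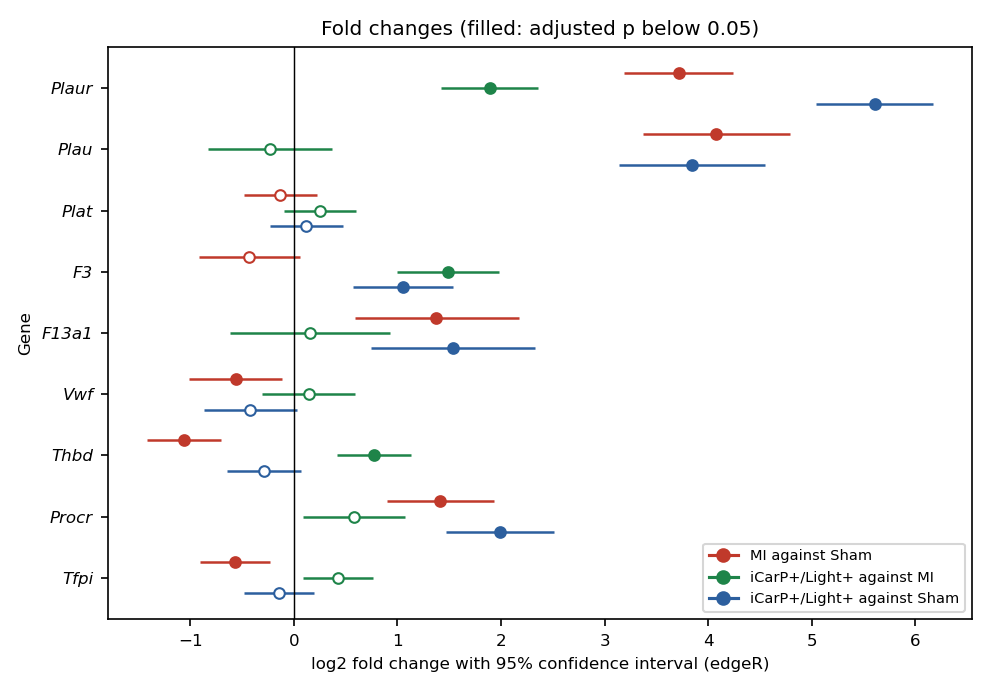
The log2 fold change of each gene (x axis) with its 95% confidence interval, for the 3 comparisons by colour, from edgeR. Filled points passed an adjusted p of 0.05, which Plaur did in all 3 comparisons and Plat in none.

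Over the 9 genes, 4 rose and 3 fell in MI against Sham (Tfpi and Vwf among the latter changed sign with total counts alone), where 63.8% of all genes tested passed (30.2% higher and 33.6% lower). Their groups did not overlap for 7 of 9, against 59% of all genes. Between treated and MI rats 3 rose and 0 fell, as by DESeq2 and limma-voom (edgeR, 5 higher and 0 lower at an unadjusted p under 0.05), where 13.6% of all genes passed (11.6% higher and 2.01% lower), and 3 of 9 did not overlap, against 16.4%. Between treated and Sham rats 5 rose and 0 fell by each of the 3 tools and also at an unadjusted p under 0.05, where 66.5% of all genes passed (33.5% higher and 33% lower), and 5 of 9 did not overlap, against 63.5%. The median log2 fold change of the 9 was −0.13, 0.42 and 1.06 in these comparisons, and that of all genes −0.06, 0.01 and 0.02. The comparisons share groups, so their counts are not independent.

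**Figure D3:**
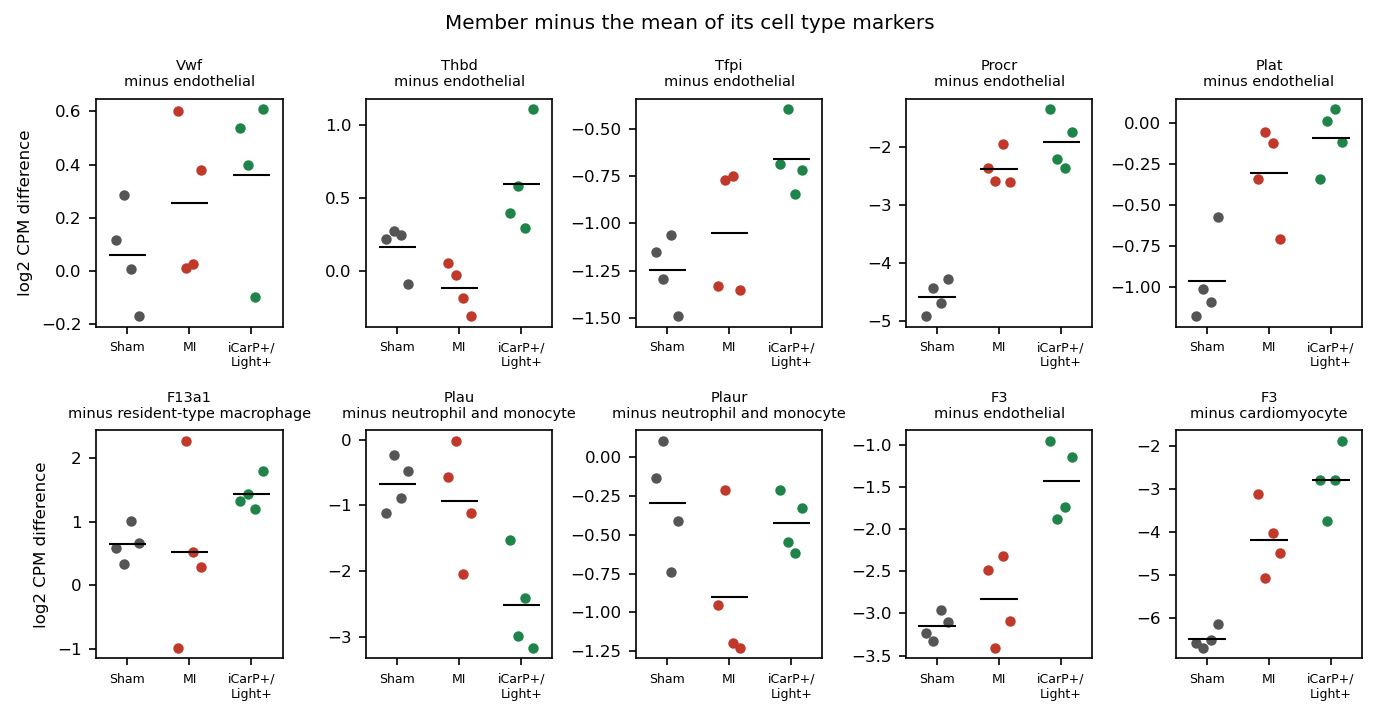
Log2 CPM of a gene minus the mean log2 CPM of a marker list (y axis) in every rat, by group (x axis), with the group mean as a line. F3 and Thbd lay higher against endothelial markers in treated rats than after MI alone, and Plau lay lower against neutrophil and monocyte markers in treated than in Sham rats.

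Set against the markers of a cell type that can make them, 2 of 10 differences did not overlap in MI against Sham (Procr, and F3 against cardiomyocytes). In iCarP+/Light+ against MI 2 of 10 did not overlap (Thbd, and F3 against endothelium). F3 minus the cardiomyocyte markers was 2.30 higher in MI than in Sham, where the log2 fold change of F3 itself was −0.43. Of these markers 8 of 9 were lower and 1 higher in MI. Between treated and Sham rats 8 of 10 did not overlap. The first count was 4 without Sham rat 5 and the second 4 without MI rat 3. After Benjamini-Hochberg adjustment over the 30 differences the exact permutation p of 0.0286 became 0.0714, 0.0571 became 0.114, 0.0857 became 0.151, 0.114 became 0.19, and the larger ones became at least 0.214, so none passed 0.05.

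Per kilobase of the gene length listed in the count table, the order of the 9 genes was different in each group. In Sham it ran from Thbd at 66.3 CPM per kilobase and Plat at 44.1, whose ranges overlapped, through Vwf at 25.6, Tfpi at 23.5, F13a1 at 18.01 and F3 at 13.2, to Procr at 6.12, Plaur at 6.02 and Plau at 2.59. Of these neighbours Vwf, Tfpi and F13a1 overlapped along the order, as did Procr and Plaur. In MI Plaur led at 79.4 and overlapped F13a1 at 46.8, Plau at 43.8 overlapped Plat at 40.2, and F3 was last at 9.81, below Tfpi at 15.8. In iCarP+/Light+ rats Plaur, at 294, lay above all others with no overlap, followed by Thbd at 54.2, F13a1 at 52.1 and Plat at 47.8, and each later neighbour overlapped the next down to Vwf at 19.1.

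**Figure D4:**
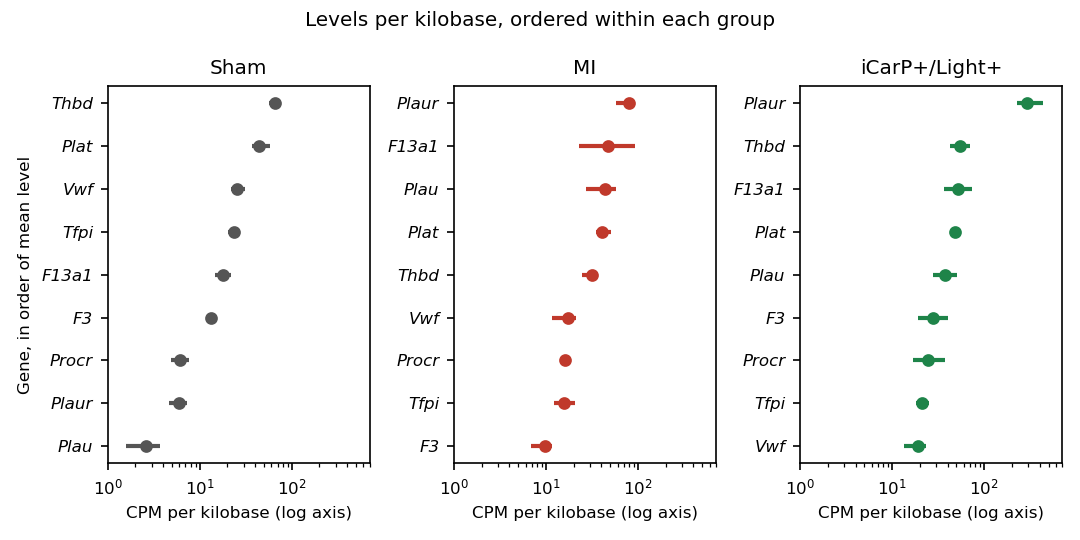
Mean level of each gene in CPM per kilobase (x axis, log scale), in order of the mean within each group, with lines from the lowest to the highest of 4 rats. Plaur goes from the second lowest place in Sham (6.02) to the highest in treated rats (294).

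Genes with a pattern like a member's over the 12 rats were ranked by Pearson's r of log2 CPM among 10722 protein-coding genes, as a description, since all points share 3 groups. Plaur was most like Hyou1, Il1r2 and Slc16a3 (each r = 0.996), and Plau most like Pwp2 (r = 0.986), Rai14 and Edem2 (each r = 0.985). For F3 the nearest were Mreg (r = 0.882), Ccrl2 (r = 0.863) and Steap4 (r = 0.858), and for Thbd Gucd1 (r = 0.975), Pcsk5 and Ccny (each r = 0.948). Procr lay nearest to AC128848.1 (r = 0.956), Mt2A (r = 0.954) and Dnttip2 (r = 0.951). For Tfpi these were Stc1 (r = 0.918), Smtnl2 (r = 0.914) and Pla2g2a (r = 0.91), for F13a1 Scn3b (r = 0.915), Mtcl1 (r = 0.911) and Kbtbd11 (r = 0.909), and for Vwf Bcl2l13 (r = 0.905), Zfyve9 (r = 0.902) and Rab3d (r = 0.895). Plat had the weakest likeness, with Dgka (r = 0.825), Aldh1a2 (r = 0.783) and Rnpc3 (r = 0.75).

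A wider list of 56 other coagulation, fibrinolysis and platelet genes had 35 with enough counts to test. Of the factors known to be made by the liver, Fga, Fgb, F9 and Proc had 0 counts in all Sham rats, whereas F10 and Serpinc1 had means of 2.78 and 2.22 CPM there and Pros1 of 66.4 CPM, examples chosen after their values were seen. In MI against Sham 14 of the 35 rose and 8 fell (median 0.41 against −0.06 for all genes), where 30.2% of all genes tested rose and 33.6% fell. In iCarP+/Light+ against MI 8 rose and 0 fell (median 0.06 against 0.01), where 11.6% of all genes rose and 2.01% fell. At an unadjusted p under 0.05 that was 10 higher and 2 lower by edgeR, and after adjustment 8 and 1 by DESeq2 and 9 and 0 by limma-voom. The count of 8 was 3 where only genes with at least 10 counts in every rat were tested. F2rl2, Selp, Serpinb2 and Gp6, with lowest counts of 3, 5, 0 and 0 in Sham, were then not tested. Gp6 never exceeded 9 counts in MI rats or 3 in Sham rats, whereas every treated rat had at least 11. Serpinb2 had 6 counts in MI rat 3 and at least 241 in every treated rat. These 2 genes had enough counts to be tested only because of the treated rats. They could therefore add to the 8 that rose but not to the 0 that fell. The count of 8 was 5 without MI rat 1, iCarP+/Light+ rat 2 or iCarP+/Light+ rat 5. From Sham to treated rats 18 rose and 10 fell (median 0.83 against 0.02), where 33.5% of all genes rose and 33% fell.

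Among the inhibitors, Serpinb2, a urokinase inhibitor, had no count in any Sham rat and stood at 0.324 to 4.25 CPM in MI and 16.3 to 31.5 CPM in treated rats. The treated mean was at least 97.5-fold higher than the 3-count floor of a Sham library, and treated rats were 3.32 higher (log2, SE 0.574, adjusted p = 0.00357) than MI rats. Tfpi2, a relative of Tfpi, was 1.75 higher in MI than in Sham (adjusted p = 3.46e-04) and 1.62 higher in iCarP+/Light+ than in MI (adjusted p = 0.00293), with no overlap at either step.

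Of the protease-activated receptor (PAR) genes, F2rl2 (PAR3) had the largest difference between treated and MI rats on the wider list. Sham rats held 0.205 to 0.650 CPM (3 to 9 counts), MI rats 8.79 to 14.5 CPM and iCarP+/Light+ rats 127, 327, 177 and 439 CPM. It was 4.39 higher (log2, SE 0.372, adjusted p = 8.75e-06) in iCarP+/Light+ than in MI. The other 3 receptor genes did not pass the test in that comparison. P-selectin (Selp), an adhesion molecule of platelets and activated endothelium, had means of 0.704 CPM in Sham, 27.4 in MI and 71.5 in treated rats, and rose at both steps (log2 5.27, adjusted p = 4.78e-08, and 1.38, adjusted p = 5.86e-04). Itgb3 (integrin beta 3) rose by 1.77 and 1.08 (adjusted p = 6.37e-04 and 0.0449), whereas Pf4 (platelet factor 4) rose by 2.66 from Sham to MI (adjusted p = 1.11e-04) and differed by 0.08 between iCarP+/Light+ and MI (95% interval −0.76 to 0.93). Platelet and megakaryocyte markers, 3 tested of 6, summed to 21.1 to 36.3, 75.1 to 238 and 96.9 to 238 CPM in the 3 groups, and most of each sum was Pf4. As the mean log2 CPM of the 3 tested markers, which gives each the same weight, MI rats lay at 2.55 to 3.18 and treated rats at 3.39 to 4.24, with no overlap between them. The other tested markers, Itga2b and Treml1, were 0.88 and 1.40 higher in treated against MI rats (log2, edgeR adjusted p = 0.075 and 0.188). After adjustment 0 of the 3 passed by edgeR and by DESeq2 and 1 by limma-voom, and 2 had an unadjusted edgeR p under 0.05. The part of platelets in the Selp and Itgb3 results was not tested.

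Coagulation factor V (F5) had means of 1.18 CPM in Sham and 21.8 in MI and was 4.20 higher (log2, adjusted p = 1.33e-06), and the difference between iCarP+/Light+ and MI was 0.61 (95% interval −0.06 to 1.29). Masp1 (log2 −3.15, adjusted p = 1.63e-05) and Gas6 (log2 −2.29, adjusted p = 3.52e-07) fell in MI, where Gas6 went from 573 to 117 CPM. Treated and MI rats differed in them by −0.06 and −0.13. P4hb, the disulfide isomerase, and Anxa2, a cell surface partner of plasminogen activation, rose again in iCarP+/Light+ against MI by 1.07 (adjusted p = 4.86e-04) and 0.62 (adjusted p = 0.0331).

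**Figure D5:**
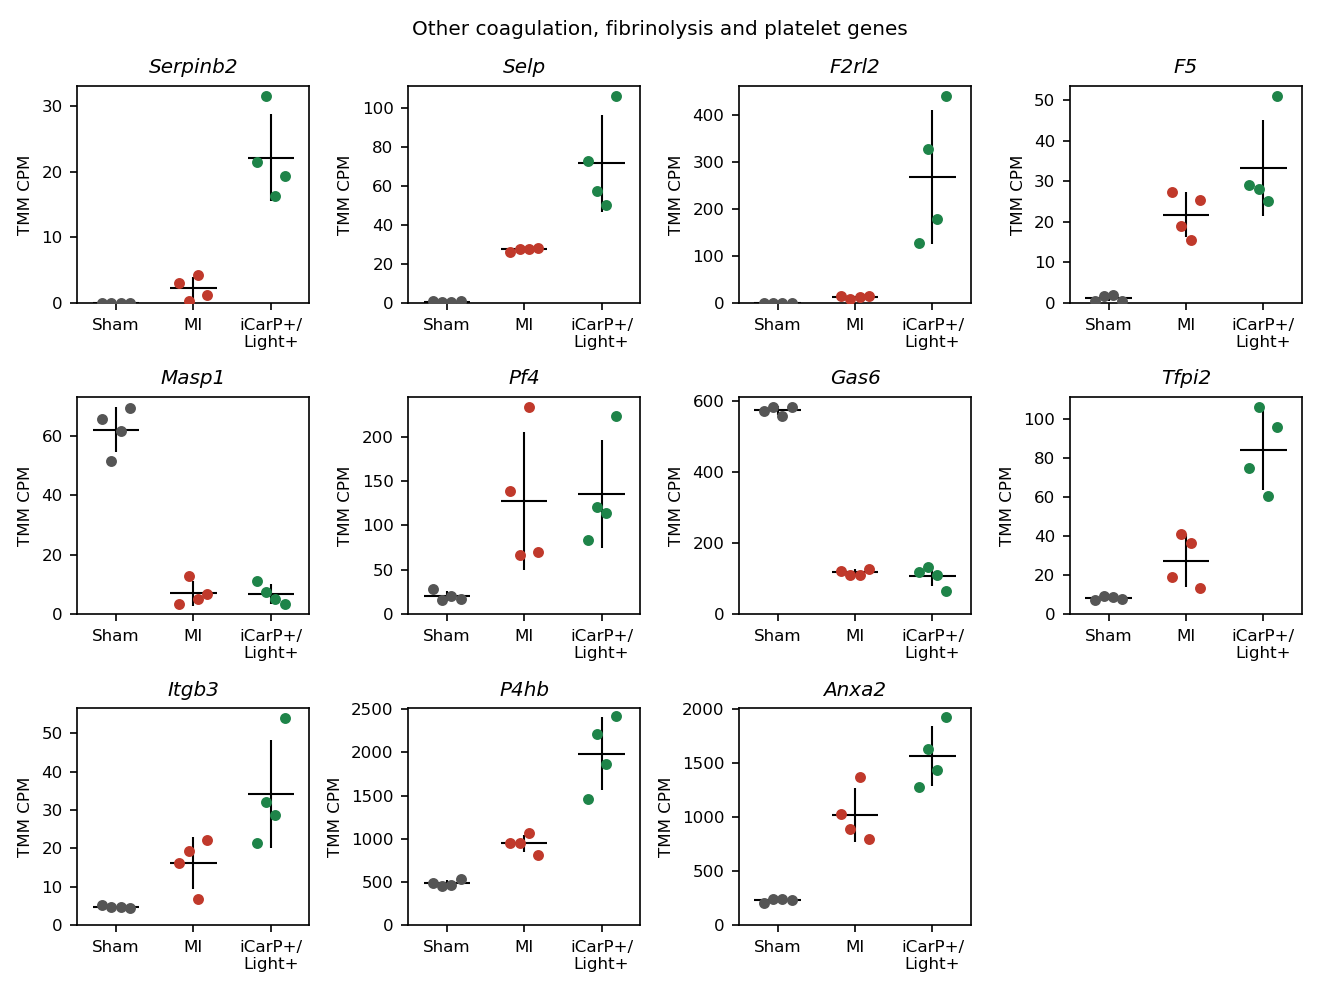
TMM CPM (y axis, from 0) of 11 named genes of the wider list in every rat, by group (x axis), with the mean as a horizontal line and the SD as a vertical line (n = 4). F2rl2 lies at 127 to 439 CPM in treated rats and at or below 14.5 CPM in all others, while Pf4 overlaps between MI and iCarP+/Light+ rats.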

How the data were processed

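Total RNA from the left ventricle of 12 rats was sequenced from NEBNext Ultra libraries, with no strand setting stated. The authors deposited raw read counts per gene, without normalization, together with gene positions and lengths. The submitters' processing notes name HISAT2, featureCounts and rn6, with no versions. Positions are as listed in that table, and promoters are from RefSeq GRCr8, so the builds were never joined. Members and lists were chosen with earlier results of these data known, and the promoter motifs and within-rat ratios after their values were seen.

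Genes were kept by filterByExpr (minimum count 10), scaled by TMM and fitted with 1 mean per group by edgeR 4.0.16 quasi-likelihood (R 4.3.3), with Benjamini-Hochberg adjustment over all 15101 genes. Log2 CPM used a prior count of 2. Members were set against marker lists by two-sided exact permutation tests over 70 arrangements, adjusted over 30. From the wider list, genes were named with an adjusted p below 0.05 and a mean of at least 5 CPM, up to the 8 largest changes in MI against Sham and in iCarP+/Light+ against MI, and 3 similar genes per member. Of the wider list, 1 gene that met this rule is not reported here. Alternatives were other scalings and filters, DESeq2 1.42.0, limma-voom (limma 3.58.1), no mitochondrial genes, only the compared groups, a replicate block and each rat left out. The DESeq2 run kept every gene with at least 1 count. Methods were tested on simulated data, and pairs of rats within a group differed by a chi-square per gene of at least 14.1, so no library was a copy. The labels give no sequencing batch, and p-values measure the spread between these rats. The 95% intervals come from the same fit and include that spread, whereas the 3-count floors cover counting error only, for reads without molecular identifiers. Plots were drawn with matplotlib 3.10.9.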

Additional observations from a re-analysis of the deposited data

Results flagged for a closer look

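Among 63 sets of 4 rats (the members and the named genes of the wider list in each group), 3 had a rat that stood apart from the rest on the log2 CPM scale, where chance gives about 1 in 20, or 3.15. In MI, Plat was 131 CPM in rat 3 and 89.4 to 94.6 in the other 3, a gap of 0.85 of the whole range. In the same rat F2rl2 was 8.79 CPM, against 13.4 to 14.5 in the others (gap 0.835). In Sham, Itgb3 was 5.13 CPM in rat 1 and 4.57 to 4.64 in the others (gap 0.866).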

How the results depend on the processing

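Of 297 results recomputed under the other alternatives, 282 were labelled unchanged, and 776 of 792 were with a rat left out. For a member's fold change, unchanged means the same direction and side of the threshold. For a count it means a limited ratio to the main count. For a difference from markers, recomputed only with rats left out, it means a shift below the SD within groups. With total counts alone, Plat became 0.45, F3 0.15, Tfpi 0.01 and Vwf 0.02 in MI against Sham, Plat −0.01, F13a1 −0.12 and Vwf −0.14 in iCarP+/Light+ against MI, and Thbd 0.01 and Tfpi 0.17 in iCarP+/Light+ against Sham. Plat in MI against Sham was 0 when only those groups were fitted. Vwf lost its call in MI against Sham with DESeq2 size factors (−0.50), at least 10 counts in every rat (−0.49) and only those groups (−0.42). The cause was not tested. With at least 10 counts in every rat, 3 wider genes were called in iCarP+/Light+ against MI, where 8 were without it, with fewer genes tested. F2rl2, Selp, Serpinb2 and Gp6, called without this filter, were not tested under it.

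With rats left out, members called were 6 to 7, 3 to 4 and 5 to 6 in MI against Sham, iCarP+/Light+ against MI and iCarP+/Light+ against Sham. Wider genes were 20 to 23, 5 to 9 and 26 to 30, with 5 in iCarP+/Light+ against MI without MI rat 1, iCarP+/Light+ rat 2 or iCarP+/Light+ rat 5. Differences from markers without overlap were 2 to 4, 2 to 4 and 8 to 9, with 4 without Sham rat 5 in the first and without MI rat 3 in the second. F13a1 in iCarP+/Light+ against MI spanned −0.13 (without iCarP+/Light+ rat 5; −0.07 without MI rat 1) to 0.72, Vwf −0.01 (without MI rat 4) to 0.28, and Plat in MI against Sham −0.27 to 0.03 (without Sham rat 5).

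Equal rat numbers come from the sample names. Deviations of same-numbered rats correlated at −0.15 to 0.065 (median −0.059, 9 pairs). Those of other pairs from different groups correlated at −0.151 to 0.203 (median 0.019, 39 pairs). Whether equal numbers mark rats handled together cannot be told from these correlations. With a replicate block, members called were 7, 3 and 5 and wider genes 22, 6 and 26, and calls over all genes in iCarP+/Light+ against MI were 1298, against 2051 without it and 3926 with total counts alone. Depth limits genes near the floor of 0.228 CPM.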
